A study of Helicoverpa armigera with 12 samples.

Results

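Moth eggs are provisioned with yolk by a small set of genes. Yolk proteins, a yolk receptor and an ovarian protease of the cotton bollworm *Helicoverpa armigera* were examined here, as 4 assembled contigs of 99711 in the expression table. They are c63919_g1_i1 (vitellogenin), c54420_g1_i1 (egg-specific protein precursor), c65659_g1_i1 (vitellogenin receptor) and c65203_g1_i1 (ovarian serine protease), named as in the deposited annotation, and each is the only contig of its unigene. They were picked by name after their levels by stage and adult sex had been seen, and were chosen for being high in adult females. Their levels in females, and the differences between females and any other group, are therefore given as a description without a test. The contrast between the 2 larval stages was not what they were chosen for, and it was tested. Larval levels had been seen too, however, and choosing contigs that stand out in females favours low larval levels. The larval test is therefore not independent of the choice.

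The study sequenced poly(A) RNA from whole bodies of *H. armigera* at 3 stages. The 12 libraries comprised 4 from larvae of the 1st instar, 4 from larvae of the 5th instar, 2 from adult males and 2 from adult females. Each 1st instar library was made from a pool of 30 larvae on the third day after hatching. Each 5th instar library came from a pool of 10 larvae on the first day after ecdysis, and each adult library from a pool of 10 moths on the first day after eclosion. All insects were reared on artificial diet, no group was treated, and the sex of the larvae is not given. The sample titles number the male libraries 1 and 2 and the female libraries 3 and 4, and these numbers are used here, although the columns of the table number the female libraries 1 and 2. Nothing in the labels says whether the pools of a stage came from separate cultures, so p-values measure only the spread between these pools.

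Vitellogenin is the main yolk precursor of insects, which the fat body makes and releases into the haemolymph. Growing oocytes take it up through the vitellogenin receptor, a member of the low-density lipoprotein receptor family that gathers in clathrin-coated pits of the oocyte membrane. Egg-specific protein is a second yolk protein of moths, known from the silkworm *Bombyx mori*, where the follicle cells of the ovary make it. The ovarian serine protease has as its best Swiss-Prot match Nudel of *Drosophila melanogaster*, a protease made by follicle cells that acts in the eggshell and at the head of the protease cascade that sets the dorsoventral axis.

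Values are FPKM, mapped fragments scaled by the length of the contig and by the mapped total of the library, so levels can be compared between contigs. The FPKM of all contigs summed to between 1074573 and 1509632 in larval libraries, between 648908 and 688947 in male libraries, and to 542615 and 447094 in female replicates 3 and 4. Read counts were not used here, so how many fragments stand behind a value is not known, and a 0 says only that the contig is listed at 0. Differences are given on the log2(FPKM + 1) scale with the standard error of limma, a linear model fitted to all contigs together, and this scale understates differences from values near 0. Of the 27678 contigs with a mean of at least 1 FPKM over the 12 libraries, limma called 5.56% higher in females than in males and 6.82% higher in males at an adjusted p below 0.05. Counts of calls between the sexes given below for lists and domains are to be read against these shares. Scaling the libraries to the same sum moved the median difference between the sexes by 0.15, and 65.4% of the calls were then higher in females, against 44.9% without it. Of the other 1534 contigs called higher in females, 225 passed the filter on the mean through the females alone, as did 959 of the 1889 called higher in males through the males alone, and for such contigs named below no p is given. All 4 contigs passed the filter as well. Without the females vitellogenin averaged 0.479 FPKM, the receptor 0.0461 and the protease 0.0445, so these 3 passed through the females alone, whereas egg-specific protein averaged 2.56 FPKM over the other 10 libraries.

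Vitellogenin was among the most abundant transcripts of adult females and near 0 in larvae. Female replicate 3 had 1209 FPKM and female replicate 4 had 465 FPKM of vitellogenin (c63919_g1_i1), while male replicates 1 and 2 had 2.23 and 0.505. The 5th instar libraries 1 to 4 had 0.508, 0, 1.36 and 0.011 FPKM, and the 1st instar libraries 1 to 4 had 0.037, 0.095, 0.048 and 0. Both females thus lay far above every other library, the males overlapped with the 5th instar larvae, and the larval stages overlapped with each other. By rank, vitellogenin was contig 92 of female replicate 3 and contig 186 of female replicate 4. The mean was 837 ± 526 FPKM in females (SD, n = 2) and 1.37 ± 1.22 in males (SD, n = 2), a ratio of 612 and a log2 difference of 8.41 (SE 0.53). Larval means were 0.469 ± 0.638 FPKM in the 5th and 0.045 ± 0.0391 in the 1st instar (SD, n = 4 each).

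Egg-specific protein reached the highest level of the 4 contigs, and nearly all of it was in 1 pool. Female replicate 3 had 10491 FPKM of egg-specific protein (c54420_g1_i1), where it was the contig of rank 2, and female replicate 4 had 487 FPKM, where it ranked 178. Male replicates 1 and 2 had 16.6 and 2.00 FPKM, the 5th instar libraries 2.39, 0, 4.50 and 0.053, and the 1st instar libraries 0, 0, 0 and 0.039. The order of the groups was the same as for vitellogenin, with the females apart, the males overlapping the 5th instar larvae, and 3 of the 4 1st instar libraries listed at 0. The mean was 5489 ± 7074 FPKM in females and 9.31 ± 10.3 in males (SD, n = 2 each), with a log2 difference of 8.28 (SE 1.33). Means of 1.74 ± 2.15 FPKM in the 5th and 0.00975 ± 0.0195 in the 1st instar (SD, n = 4 each) followed. Its standard error was more than that of any other of the 4 contigs, and without female replicate 3 the difference between the sexes was 6.07.

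The vitellogenin receptor stood at a lower level than its ligand in both female pools. It had 112 FPKM in female replicate 3 and 25.9 in female replicate 4 (c65659_g1_i1), against 0.179 and 0.008 in male replicates 1 and 2. The 5th instar libraries had 0.025, 0.023, 0.054 and 0.011 FPKM and the 1st instar libraries 0.012, 0.024, 0.060 and 0.065. The receptor was above 0 in all 12 libraries, but outside the females it was at most 0.179 FPKM, with 1 male library above and 1 below all larvae. Its mean was 68.8 ± 60.6 FPKM in females and 0.0935 ± 0.121 in males (SD, n = 2 each), with a log2 difference of 5.66 (SE 0.49). The means of 0.0403 ± 0.0262 FPKM in the 1st and 0.0283 ± 0.0182 in the 5th instar (SD, n = 4 each) differed by less than their spread.

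The ovarian serine protease had the lowest level of the 4 contigs in each female pool. Female replicates 3 and 4 had 85.7 and 16.4 FPKM of the protease (c65203_g1_i1), and male replicates 1 and 2 had 0.194 and 0.054. The 5th instar libraries had 0.013, 0, 0.148 and 0.011 FPKM, and the 1st instar libraries 0, 0.012, 0 and 0.013. As with the other contigs, the males overlapped the 5th instar larvae, through replicate 3 of the latter. The mean was 51.1 ± 49.0 FPKM in females and 0.124 ± 0.0990 in males (SD, n = 2 each), with a log2 difference of 5.12 (SE 0.55), and the larval means were 0.043 ± 0.0702 FPKM in the 5th and 0.00625 ± 0.00723 in the 1st instar (SD, n = 4 each).

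**Figure D1:**
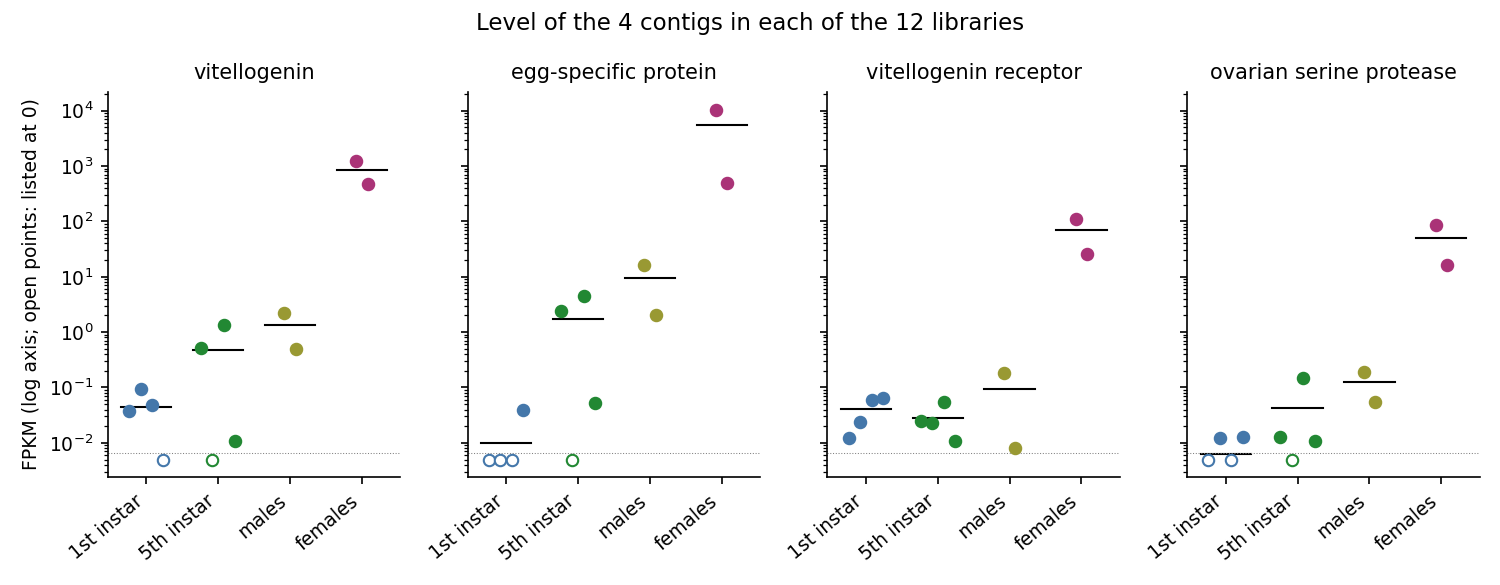
FPKM of the 4 contigs in each of the 12 libraries on a log axis, 1 panel per contig, with a point per library, a bar at the mean of each group and open points for libraries listed at 0. Both female libraries lie above all others in each panel, and female replicate 3, the left point, lies above female replicate 4, most of all for egg-specific protein with 10491 against 487 FPKM.

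The lower female value exceeded the highest of the other 10 libraries by a factor of 208 for vitellogenin, 145 for the receptor, 84.7 for the protease and 29.3 for egg-specific protein. Such a gap of more than 10 times was found in 107 contigs, or 0.387% of those tested, the 4 contigs included. In 912 contigs (3.3%) both females exceeded all other libraries by any margin. In these whole-body pools, fewer cells of a type and less RNA per cell cannot be told apart. The standard errors given above for the sexes draw on the spread of all 4 groups, the larvae included. With the 2 sexes alone they were larger, at 0.72 for vitellogenin, 2.04 for egg-specific protein, 0.85 for the receptor and 0.94 for the protease.

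The larval stages were compared next, to see whether the low levels of the 4 contigs differed between them. Of the 4 contigs limma called 0, and 0 had an unadjusted p below 0.05. Of all contigs 45.7% were called, with 24.4% higher in 1st instar and 21.3% higher in 5th instar larvae. The 4 contigs were chosen for standing out in females and were low in larvae, so nothing is concluded from their count against this share. The 1st minus 5th instar difference of vitellogenin was −0.40 on the log2 scale (SE 0.38, limma adjusted p = 0.419; two-sided exact permutation p = 0.4 over the 70 splits of 4 and 4 libraries). Egg-specific protein differed by −1.06 (SE 0.94, limma adjusted p = 0.388; exact permutation p = 0.143), with 5th instar replicates 1 and 3 above all 1st instar libraries and replicate 2 at 0. For the receptor the difference was 0.017 (SE 0.35, limma adjusted p = 0.988; exact permutation p = 0.457). For the protease it was −0.049 (SE 0.39, limma adjusted p = 0.944; exact permutation p = 0.543). The standard errors of this fit draw on the spread of all 4 groups, the 2 female pools included. For the receptor and the protease, whose larval values were at most 0.148 FPKM, a difference on this scale could not exceed them. With the larval libraries alone the standard error was 0.025 for the receptor (limma adjusted p = 0.622) and 0.045 for the protease (limma adjusted p = 0.400). In that fit it was 0.26 for vitellogenin (limma adjusted p = 0.253) and 0.55 for egg-specific protein (limma adjusted p = 0.156). These tests do not show that the stages had equal levels.

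The low values outside the females were not spread evenly over the libraries. Male replicate 1 held 0.184% of the level of female replicate 3 for vitellogenin, 0.159% for egg-specific protein, 0.1603% for the receptor and 0.226% for the protease. Male replicate 2 held 0.0418%, 0.0190%, 0.00717% and 0.0630% in the same order, so all 4 contigs were lower there than in male replicate 1. Among the larvae, 5th instar replicate 3 held the highest share for vitellogenin (0.112%), egg-specific protein (0.0429%) and the protease (0.173%). The other 103 contigs with a female gap of more than 10 times showed a median of 0.202% of female replicate 3 in male replicate 1, 0.0768% in male replicate 2, 0.204% in 5th instar replicate 3, 0.0312% in 5th instar replicate 1 and 0 in the remaining 6 larval libraries. The shares of the 4 contigs in male replicate 1 were thus close to that of other contigs high in females, and whether transcripts from the female libraries contributed to these low values was not tested.

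All 4 contigs were higher in female replicate 3 than in female replicate 4, by more than most contigs were. Levels in female replicate 3 were higher than in female replicate 4 by a factor of 2.60 for vitellogenin, 4.30 for the receptor, 5.21 for the protease and 21.5 for egg-specific protein. Across all contigs the log2 difference of replicate 3 minus replicate 4 had a median of 0 and an SD of 0.997. The 4 contigs lay at percentiles 94.3, 97.5, 98.0 and 99.8 of this signed difference in that order. In the other direction the 5th percentile of all contigs was −1.65, larger in size than the 1.38 of vitellogenin. Among the 103 other contigs with a female gap of more than 10 times, the level in female replicate 4 had a median of 58.3% of that in replicate 3, with quartiles of 29.1% and 108%. Vitellogenin, at 38.5%, lay within these quartiles, and 35 of the 103 had a lower share. Shares lower than that of the receptor (23.2%) were found in 18, of the protease (19.2%) in 15 and of egg-specific protein (4.64%) in 6 of the 103. A drop in replicate 4 was thus not particular to the 4 contigs among contigs high in females. Together the 4 contigs made up 2.19% of the FPKM of female replicate 3 and 0.222% of that of female replicate 4. The ratio of egg-specific protein to vitellogenin was 8.67 in replicate 3 and 1.05 in replicate 4, whereas the ratio of the protease to the receptor was 0.768 and 0.634. The pools therefore differed in the proportions of the 2 yolk proteins, while receptor and protease kept a similar proportion to each other. With 2 female pools no test of these ratios is possible.

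**Figure D2:**
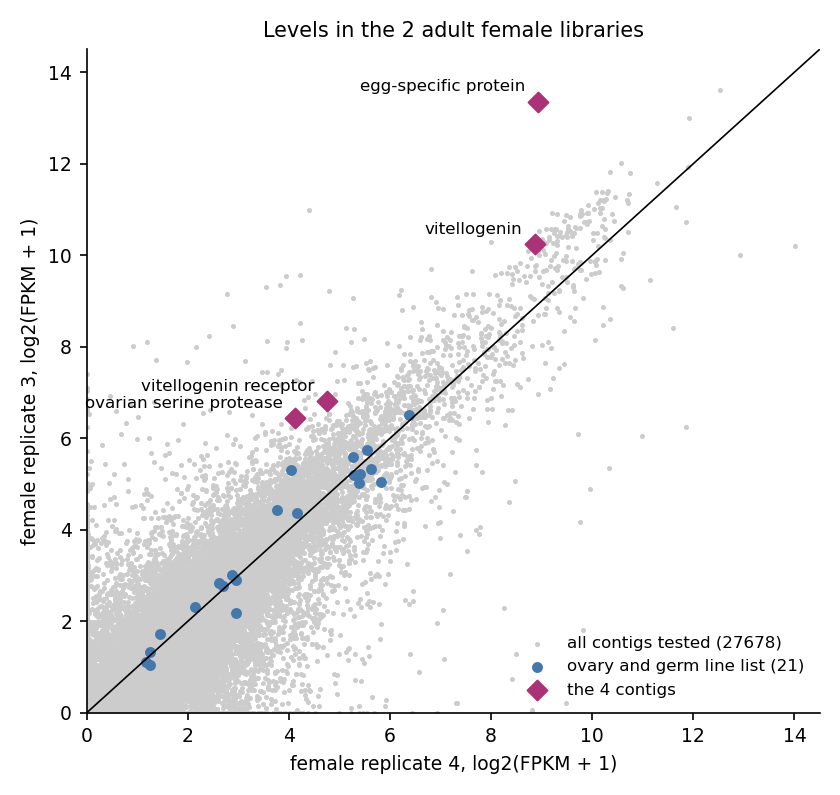
Levels in the female libraries as log2(FPKM + 1), replicate 4 on the horizontal and replicate 3 on the vertical axis, for the 27678 contigs tested (grey), 21 contigs of the ovary and germ line list (blue) and the 4 contigs (diamonds), with the line of equal levels. The 4 contigs lie above the line by 1.38 (vitellogenin), 2.06 (receptor), 2.31 (protease) and 4.43 (egg-specific protein), whereas the ovary and germ line contigs scatter around it with a median of 0.09.

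Markers of the ovary and germ line, a list that holds none of the 4 contigs, had similar sums in both female pools. A list of 29 contigs described by names of ovary and germ line genes (nanos, vasa, aubergine, oskar and others) summed to between 476 and 486 FPKM in females, 41.9 and 49.7 in males, 88.4 and 109 in 1st instar and 52.6 and 83.0 in 5th instar larvae. Of its 21 tested contigs 15 were called higher in females and none lower, 5 of the 15 having passed the filter through the females alone, with a median log2 difference of 2.87 against −0.09 for all contigs. The nanos-like contig c62723_g1_i2, whose product represses translation in germ cells, had 90.0 and 81.6 FPKM in female replicates 3 and 4 and 0.179 and 0.280 in the males, a difference of 6.14 (SE 0.21). A vasa-like contig, c62915_g3_i2, an RNA helicase of germ cells, had 39.3 and 48.4 FPKM in the females and 1.49 and 2.31 in the males, a difference of 3.96 (SE 0.37, limma adjusted p = 2.4e-05). The 21 germ line markers differed between the female pools by −0.77 to 1.27 on the log2 scale. Vitellogenin, at 1.38, lay just above this range, and the receptor, the protease and egg-specific protein lay farther above it.

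Sums of testis and muscle contigs were lower in females than in males, and the part of other tissues in the results was not tested. Testis and sperm contigs (234 listed) summed to between 987 and 1360 FPKM in males and 451 and 660 in females, and to more in 5th instar larvae (3366 to 7129), with 880 to 958 in the 1st instar. Of 108 tested, 13 were called lower and 4 higher in females, against 6.82% and 5.56% of all contigs. The axonemal dynein contig c42691_g1_i1, a motor of the sperm tail, had 53.8 and 99.7 FPKM in males, 0.123 and 0 in females and 0 in all larvae. In 5th instar libraries 1 to 4, the testis-specific kinase-like contig c37510_g1_i1 had 0.089, 54.8, 33.7 and 48.6 FPKM. There c58008_g1_i1, with a testis-specific Swiss-Prot match, had 0, 22.4, 16.9 and 24.3. Whether the larval pools differed in their share of males was not tested. These testis contigs and the nanos-like contig were named for their large difference between the sexes, so they are no check on the sex labels. Muscle contigs (49 listed) summed to between 7811 and 10354 FPKM in males and 3965 and 4588 in females, where the FPKM of all contigs also summed to less. Of 33 tested, 2 were called lower and 0 higher in females, against 6.82% and 5.56% of all contigs. Storage proteins of the larval fat body (11 listed) summed to between 42660 and 143340 FPKM in 5th instar larvae and to at most 287 in any other library. Of 10 tested, 1 was called lower and 0 higher in females, and the sums of the sexes overlapped.

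The 4 contigs encode proteins of different build, and both receptor and protease carry repeats of the lipoprotein receptor family. Vitellogenin carries the lipoprotein amino-terminal domain at residues 29 to 723 and a von Willebrand factor type D domain at residues 1426 to 1593 of its translated sequence, as matched to Pfam in the deposited annotation. The receptor has 8 matches to the low-density lipoprotein receptor class A repeat, the ligand-binding module of the family, and the ovarian serine protease has 6 of the same repeat beside 2 trypsin domains. This repeat is carried by 48 of the 20544 contigs with a Pfam match, or 0.234%. Of the 26 other tested contigs with it, 1 was called higher in females and 1 higher in males. Egg-specific protein carries a lipase-type alpha/beta hydrolase region, and its best Swiss-Prot match is Lipase 3 of *D. melanogaster*. Of 18 other tested contigs with that region none was called higher in females and 1 was called higher in males.

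Other contigs described as vitellogenin, or with a Swiss-Prot match to it, did not share the large gap between females and all other libraries. The list of yolk precursors held 13 further contigs, of which 10 were tested and 0 were called between the sexes by limma, with 0 also at an unadjusted p below 0.05 and a median female minus male difference of 0.09. The standard errors of this fit draw on the spread of the larvae as well. With the 2 sexes alone 2 contigs of the list were called, and at a pseudocount of 0.01 3 were called. Most of the abundant ones matched the very high density lipoprotein of *Helicoverpa zea*, a haemolymph protein of larvae, and were high in larvae. The contig c75695_g1_i1 had 6274, 421, 1792 and 1007 FPKM in 5th instar libraries 1 to 4, 0.706, 5.20, 5.52 and 0.351 in 1st instar libraries, and between 0.284 and 0.441 in the 4 adult libraries. Its 1st minus 5th instar difference was −8.89 (SE 0.79, limma adjusted p = 1.6e-05), and the larval groups did not overlap. Contigs of the assembled component c63881 with the same description fell into opposite patterns. The contigs c63881_g1_i1, c63881_g1_i2 and c63881_g2_i1 were higher in 5th instar larvae, with 1st minus 5th instar differences of −7.98, −7.86 and −8.15 on the log2 scale, and passed the filter on the mean through that stage alone.

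By contrast, c63881_g3_i1 had 297, 868, 627 and 274 FPKM in 1st instar libraries 1 to 4 and 141, 6.71, 242 and 34.6 in 5th instar libraries. Its difference of 3.05 (SE 0.92, limma adjusted p = 0.0206) and that of c63881_g4_i1, 3.13 (SE 0.91, limma adjusted p = 0.0174), passed the test, and 1st instar levels lay above all 5th instar levels in both. A further contig, c63881_g5_i1, described as the vitellogenin protein of the armyworm *Mythimna separata*, had 286, 849, 595 and 265 FPKM in the 1st and 214, 6.31, 365 and 32.2 in the 5th instar libraries, and its difference of 2.75 did not pass (SE 1.05, limma adjusted p = 0.0543). In females these 3 contigs had between 1.09 and 4.47 FPKM and in males between 0 and 0.132, so a description as vitellogenin did not by itself go with a high level in females. The isoform-like contigs of c63881 may share reads, and their separate levels are uncertain. A microvitellogenin-like contig, c60303_g1_i1, named after a small yolk protein of moths, had 38.5 and 33.6 FPKM in females and 31.8 and 27.6 in males, a difference of 0.27 (SE 0.54, limma adjusted p = 0.875), and was higher in 5th instar larvae, with a 1st minus 5th instar difference of −2.33 (SE 0.38, limma adjusted p = 0.00082). The vitellogenin-2-like contig c62830_g1_i1 had 1.94 and 3.91 FPKM in females and 5.57 and 1.35 in males, which overlap. A last contig described as vitellogenin, c89044_g1_i1, was listed at 1.90 FPKM in 1st instar replicate 4 and at 0 elsewhere.

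**Figure D3:**
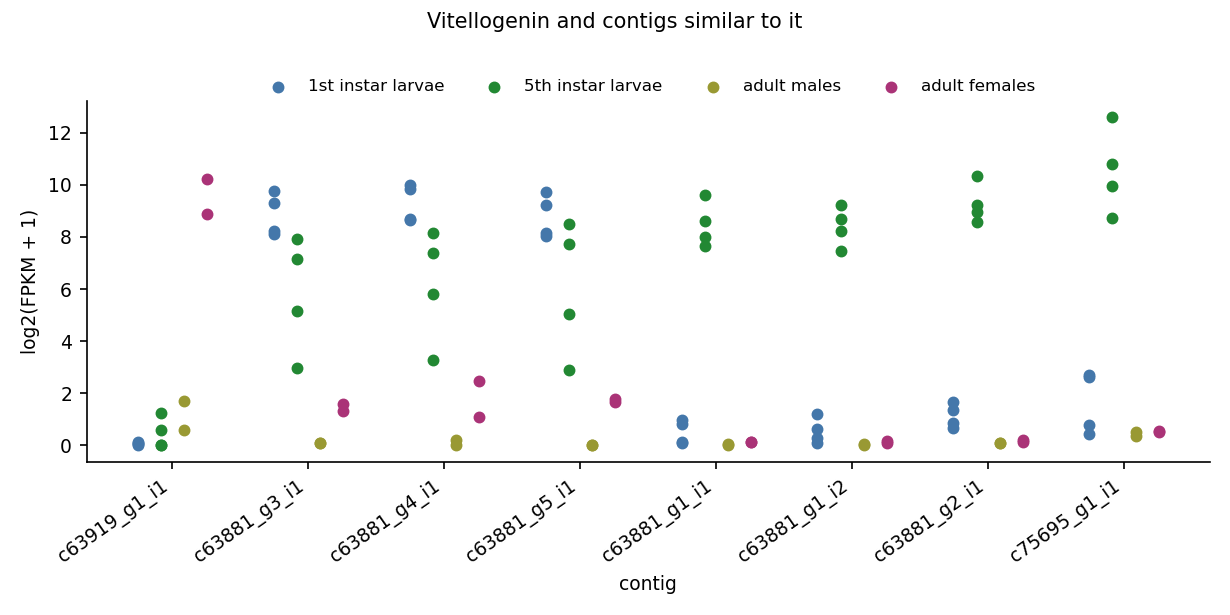
Levels of vitellogenin (c63919_g1_i1) and 7 contigs with a description or match to it as log2(FPKM + 1), with a point per library and a colour per group. Vitellogenin is high in the 2 female libraries, 3 contigs of c63881 are highest in 1st instar larvae, and 3 others together with c75695_g1_i1 are high in the 4 5th instar libraries alone.

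The contigs of the yolk uptake list other than the receptor summed to between 463 and 1025 FPKM per library over all groups. The receptor itself was at most 0.179 FPKM outside the females. The list of yolk uptake held 67 contigs beside the receptor, made up of clathrin, adaptor and lipoprotein receptor descriptions, in which the word clathrin also takes in other coat proteins. Of 43 tested, limma called 0 between the sexes, against 12.4% of all contigs, 2 had an unadjusted p below 0.05, and the median difference was 0.22. Its most abundant contig, the clathrin light chain c51858_g1_i1, had 171 and 117 FPKM in females and 113 and 130 in males, a difference of 0.23 (SE 0.33, limma adjusted p = 0.789). With libraries scaled to the same sum 6 of the 43 contigs passed.

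Carriers of lipid, which supply the oocyte through the haemolymph, were few. Of 4 tested contigs limma called 0 between the sexes and 1 had an unadjusted p below 0.05, with a median of −0.38. Apolipophorin III (c75683_g1_i1), which stabilises lipid-loaded lipophorin in flight, had 3893 and 3819 FPKM in females and 8823 and 7337 in males, a difference of −1.06 (SE 0.36, limma adjusted p = 0.0841). The groups did not overlap, but the difference missed the threshold. The apolipophorin precursor c75681_g1_i1, a protein of the vitellogenin domain family, had 402 and 208 FPKM in females and 93.5 and 136 in males, a difference of 1.35 (SE 0.72, limma adjusted p = 0.285).

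Cysteine and aspartic proteinases of the cathepsin kind break down yolk in insect eggs. In the list of yolk breakdown, 2 of 11 tested contigs were called higher in females and none lower, against 5.56% and 6.82% of all contigs. The median was 0.44, and between the female pools the 11 differed by −4.59 to 4.69. The cathepsin B-like contig c58004_g1_i1, an enzyme known from *H. armigera* oocytes and eggs, had 872 and 643 FPKM in female replicates 3 and 4, 1.79 and 0.777 in males, between 0 and 1.55 in 5th instar larvae and 0 in all 1st instar libraries. It differed between the sexes by 8.40 (SE 0.41). A second cathepsin B-like contig, c35179_g1_i1, matched to *Helicoverpa assulta*, had 68.7 and 12.7 FPKM in the females and was listed at 0 in the other 10 libraries, so no fold is given. Both passed the filter on the mean through the females alone. The first of these proteinases kept a level in female replicate 4 near that in replicate 3, whereas the second fell with the receptor and the protease.

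In the list of eggshell names, 1 of 18 tested contigs was called higher and 1 lower in females, against 5.56% and 6.82% of all contigs. The median was −0.32, and the list consists largely of peroxidase and transcription factor descriptions. The chorion peroxidase-like contig c65021_g1_i1, named for an enzyme that hardens the eggshell of mosquitoes, had 4.95 and 3.05 FPKM in females and 0.157 and 0.365 in males, a difference of 1.97 (SE 0.38), and passed the filter through the females alone. The other, c65625_g1_i3, with a best Swiss-Prot match to chorion peroxidase, had 0.876 and 1.99 FPKM in females and 7.11 and 4.87 in males, a difference of −1.54 (SE 0.27, limma adjusted p = 0.0038). The calls thus went in opposite directions, and a count of 1 each way was near the shares over all contigs. The count rested on single libraries, with 5 calls without male replicate 2 and 4 without female replicate 4.

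The 17 tested contigs of the dorsoventral protease cascade had a median of −0.24. Among them, 1 was called higher in females and none lower, against 5.56% and 6.82% of all contigs. It was the snake-like serine protease c57500_g1_i1, named for a protease that acts downstream of Nudel in *Drosophila*, with 39.4 and 13.7 FPKM in females, 3.95 and 2.93 in males and between 1.38 and 3.35 in larvae. Its difference between the sexes was 2.47 (SE 0.41, limma adjusted p = 0.0027), and like the ovarian serine protease it was lower in female replicate 4. Of 29 tested contigs for hormone receptors and nutrient signals that control vitellogenin synthesis, limma called 0, 3 had an unadjusted p below 0.05, and the median was −0.04. The most abundant of these, c52417_g2_i1, with a best Swiss-Prot match to Krueppel homolog 1, a transcription factor of the juvenile hormone response, had 56.9 and 69.9 FPKM in females and 94.0 and 118 in males, a difference of −0.73 (SE 0.25, limma adjusted p = 0.0926).

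**Figure D4:**
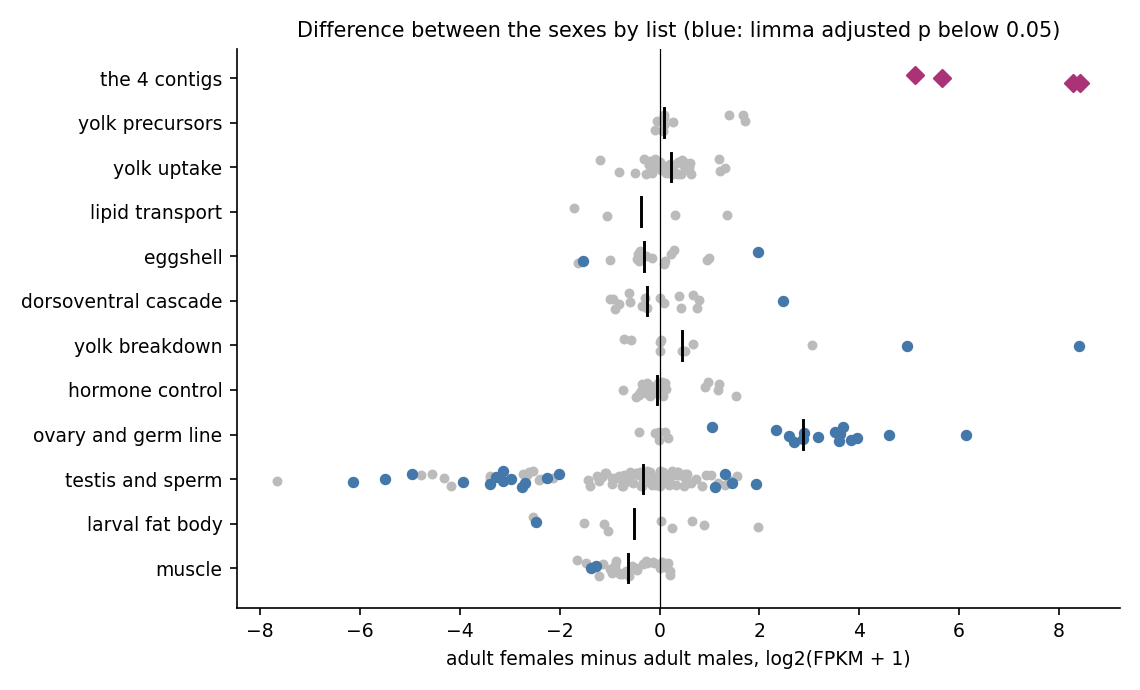
Difference between adult females and adult males on the log2(FPKM + 1) scale for the 4 contigs (diamonds, shown without a test) and for the tested contigs of each list, with a point per contig, blue where limma's adjusted p was below 0.05, and a bar at the median of the list. The 4 contigs lie between 5.12 and 8.41, the medians of the lists of yolk, eggshell and hormone genes lie between −0.38 and 0.44, and that of the ovary and germ line list at 2.87.

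The contigs whose profile over the 12 libraries was most like that of each contig were found by the root mean square difference of log2(FPKM + 1) after removal of each contig's mean, in which a smaller value means a closer profile. Receptor and protease were close to each other at 0.20, and vitellogenin and egg-specific protein were farther apart at 1.04. Nearest to vitellogenin were the cathepsin B-like contig c58004_g1_i1 (0.227), a cathepsin-like cysteine proteinase whose best match is an entry of an *H. armigera* nucleopolyhedrovirus (c34264_g1_i1, 0.229) and a histone H2B-like contig (c52684_g1_i1, 0.277). The proteinase c34264_g1_i1 had 741 and 398 FPKM in female replicates 3 and 4, and the histone contig 742 and 433. These 3 contigs and vitellogenin were each lower in female replicate 4 by less than a factor of 3.

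Nearest to egg-specific protein were vitellogenin (1.04), c58004_g1_i1 (1.18) and c58071_g1_i1 (1.20), a contig with a best Swiss-Prot match to a putative cysteine proteinase, all of them farther from it than the nearest contigs of vitellogenin, receptor and protease were from those. The receptor had as nearest contigs c57735_g1_i1 (0.119), the protease (0.200) and the cathepsin B-like c35179_g1_i1 (0.299). The protease had c57735_g1_i1 (0.114), c35179_g1_i1 (0.129) and the receptor. The contig c57735_g1_i1, whose best database match is a partial hypothetical protein of a mycobacterium, had 91.1 and 21.6 FPKM in female replicates 3 and 4 and at most 0.175 elsewhere. All of these likenesses rest mainly on the 2 female libraries, which set the females apart from 10 libraries near 0.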

How the data were processed

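The authors trimmed paired reads with Fastx-tools, assembled them with Trinity 2.0.6, mapped them to contigs longer than 200 bases with Bowtie 0.12.7 allowing at most 2 mismatches in the first 28 bases, and estimated FPKM values with RSEM 1.1.17. Each contig was deposited with its FPKM in every library and its BLASTx descriptions. FPKM values are not counts, so no count model was fitted, and the depth behind a value is unknown. The deposited descriptions are best matches, often to other species. Strand was not used in the counting as far as stated, and contigs with near-identical sequence may share reads.

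The 4 contigs were taken by their IDs. They and the lists of related genes, which are words searched in the nr and Swiss-Prot descriptions, were chosen with earlier results of these data known. Contigs with a mean of at least 1 FPKM were fitted on log2(FPKM + 1) with limma 3.58.1 (R 4.3.3, with trend), in 1 model with 4 groups and Benjamini-Hochberg adjustment over 27678 contigs, at a threshold of 0.05. Larval stages were also compared for the 4 contigs by exact permutation. The contigs named were the 4, the 3 described contigs most like each, every other contig with one of their descriptions, and for each list the 3 with the largest difference between the sexes among those called, or the most abundant where none was called. Beyond this rule, contigs with a vitellogenin domain or Swiss-Prot match were named after their values were seen, and of the contigs named for the marker lists only some are given. Fits were tested on simulated data. Alternatives were pseudocounts of 0.1 and 0.01, no filter, a minimum mean of 5 FPKM, libraries scaled to the same sum, quantile normalization, only the compared groups, a replicate block (by the numbers of the titles and, added after seeing the data, of the columns), robust spread and each library left out in turn. The rest was computed with scipy 1.17.1, pandas 2.3.3 and numpy 2.4.6 in Python 3.11.15, and plots were drawn with matplotlib 3.10.9. All 12 value columns were matched to samples. Sequences of the contigs were not analysed here.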

Additional observations from a re-analysis of the deposited data

Results flagged for a closer look

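In 2 of 8 groups of 4 larval libraries, 1 library lay far from the other 3. For continuous values chance flags about 1 in 20 groups, a rate that does not apply where 3 libraries are listed at 0. Egg-specific protein had 0.039 FPKM in replicate 4 of the 1st instar larvae and was listed at 0 in the other 3, so the gap took up the whole range. The ovarian serine protease had 0.148 FPKM in replicate 3 of the 5th instar larvae against at most 0.013 in the other 3, a gap of 0.912 of the range. Both values are small against 487 and 16.4 FPKM, the lower female levels of these contigs.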

How the results depend on the processing

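Of 418 recomputed values, 366 kept their direction and their side of the threshold, or their size within the spread, 51 moved and 1 reversed: the 1st minus 5th instar difference of the ovarian serine protease was 0.0038 (limma adjusted p = 1) with quantile normalization. No alternative brought a difference of the 4 contigs between larval stages past the threshold, with limma adjusted p from 0.253 to 0.803 for vitellogenin, 0.0996 to 0.677 for egg-specific protein, 0.622 to 1 for the receptor and 0.400 to 1 for the protease. The female minus male difference with a pseudocount of 0.1 was 9.30 for vitellogenin, 8.28 for the receptor and 7.47 for the protease. With a pseudocount of 0.01 it was 9.45, 9.85 and 8.36. It was 9.33 for vitellogenin with quantile normalization and 6.70 for the receptor with libraries scaled to the same sum. Leaving out each library gave 7.72 to 9.10 for vitellogenin, 6.07 to 10.49 for egg-specific protein, 4.63 to 6.69 for the receptor and 3.96 to 6.27 for the protease, each lowest without female replicate 3 and highest without female replicate 4.

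Contigs called higher in females (1538) numbered 899 at a minimum of 5 FPKM, 3408 at the same sum, 2871 with quantile normalization and 294 with the 2 sexes alone. Those called lower (1889) numbered 4087 without a filter and 901 at a minimum of 5 FPKM. Higher calls made up 65.4% of all calls at the same sum, 63.1% with quantile normalization, 17.1% with the 2 sexes alone, 30.3% without a filter, 32.04% with the replicate block and 44.9% in the reported fit. Leaving out each library gave 705 to 1945 higher and 1193 to 2741 lower, with 705 and 1253 without male replicate 1 and 881 and 1193 without female replicate 3. Calls higher in 1st instar larvae numbered 3709 and lower 2493 at a minimum of 5 FPKM, and ranged from 5783 to 6958 and from 4727 to 6047 with each library left out.

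Calls between the sexes in the lists also moved. Yolk precursors had 3 at a pseudocount of 0.01 and 2 with the sexes alone. Yolk uptake had 6 at the same sum. Eggshell had 0 at a minimum of 5 FPKM, with the sexes alone and with the replicate block, and 4 at the same sum and with quantile normalization. The dorsoventral cascade had 4 without a filter, 3 at the same sum, 2 with quantile normalization and 0 with the sexes alone. Yolk breakdown had 4 without a filter and 1 with the sexes alone. Hormone control had 1 at either smaller pseudocount and with quantile normalization and 2 at the same sum. With each library left out, eggshell ranged from 1 to 5, yolk breakdown from 2 to 5 (5 without female replicate 4), hormone control, lipid transport and yolk uptake from 0 to 1, the dorsoventral cascade stayed at 1 and yolk precursors at 0. The cause of these moves was not tested.

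Same-numbered libraries of different groups did not deviate together (r from −0.24 to 0.092 over 12 pairs, 0 above 0.1), when numbered by the sample titles. With this replicate block, 487 contigs were higher and 1033 lower in females. By the titles male and female numbers do not overlap. The columns of the table number the female libraries 1 and 2, and by these numbers r ranged from −0.24 to 0.34 over 14 pairs, with 2 above 0.1, both between a male and a female library. With 2 libraries per sex these 2 values mirror each other and are the same number. Since the other pairs were not above 0.1, neither numbering was taken to pair the libraries of all groups. Whether adult males and females alone are paired by column number cannot be told from 1 such value. A replicate block by the column numbers, chosen after seeing the data, gave 1021 contigs higher and 1309 lower in females, and no call in the larval comparison of the 4 contigs changed. Sums over the contigs of a unigene gave no other value, since each of the 4 unigenes has 1 contig. The values carry no counts, so the depth that limits those below 0.1 FPKM is unknown.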
